A study of Arabidopsis thaliana with 12 samples.

Results

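Of the 691 Arabidopsis thaliana loci that had a single-gene probe on the array, 7 encode photosystem subunits or factors that assemble or organise the thylakoid membrane, and these 7 are described here. They were picked by name and locus, as probes for which the annotation lists exactly 1 gene. RIQ2 and PIFI came to attention through their difference between the treatments in these same arrays. The treatment differences of all 7 are therefore given as a description, and where calls of the fit across all features are counted among them, the counts are no evidence. The structural subunits are PSBW (AT2G30570), PSBY (AT1G67740), PSAN (AT5G64040) and LHB1B2 (AT2G34420). The factors are PYG7 (AT1G22700), RIQ2 (AT1G74730) and PIFI (AT3G15840), and the gene table lists the loci of PYG7 and RIQ2 without these symbols. Each of the 7 had 1 such probe, and each gave a reading above 0 on all 12 arrays.

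Photosystem II takes electrons from water and photosystem I passes them on to ferredoxin, while light-harvesting complex proteins around them gather the light. Most small subunits and antenna proteins are encoded in the nucleus, imported into the chloroplast and built into the thylakoid by assembly factors. Photosystem II and its antenna lie mainly in stacked grana, photosystem I lies in unstacked membrane, and the stacking is itself regulated by proteins. The chloroplast NADH dehydrogenase-like (NDH) complex returns electrons to the plastoquinone pool.

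Total RNA came from wild-type plants of ecotype Columbia 0, with no organ, plant age or pooling given in the labels, and was read on 12 arrays in 2 groups of 6. The staurosporine group had water for 4 h and then staurosporine, a broad protein kinase inhibitor, for 4 h. The ascorbate group had 2 µM staurosporine for 4 h and then 25 mM ascorbate, an antioxidant, for 4 h at pH 5.5. The label of the staurosporine group gives its dose as 25 mM at pH 5.5, the figure given for ascorbate in the other group, so it may be a slip in the label, and whether the staurosporine doses differed is unknown. All plants thus received staurosporine, and no group had water alone or ascorbate alone. The ascorbate that was added and the time since staurosporine changed together and cannot be told apart.

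Deposited intensities ran on a relative scale up to 100, and array medians lay between 0.169 and 0.392 with staurosporine and between 0.351 and 0.486 with ascorbate. Staurosporine arrays 1 and 2, at 0.392 for each, lay well above the other 4 staurosporine arrays, at 0.169 to 0.228. The highest value of the array was 69.0 and 65.9 on ascorbate arrays 5 and 6 and between 96.1 and 100 on the other 10. Consecutive arrays of a group (1 and 2, 3 and 4, 5 and 6) resembled each other most, so the arrays of a group may amount to 3 samples, and values are also given by these pairs. No label says that arrays came from separate plants, so the spread may be technical. Of the fixed green-tissue markers 2 of 10 had a single-gene probe: phosphoribulokinase (PRK) had medians of 0.586 and 0.577 in the staurosporine and ascorbate groups, and SBPASE, a Calvin cycle phosphatase, gave a 0 on each of the 12 arrays. None of the fixed root, epidermal or vascular markers had one, so that the makeup of the tissue could not be checked, and in such bulk RNA fewer cells of a type and less RNA per cell cannot be told apart.

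The 7 genes fell into 3 patterns. RIQ2 and PIFI were brighter on every ascorbate array than on any staurosporine array, with ratios of the group means of 4.79 and 3.93, PYG7 was dimmer on every ascorbate array, and the 4 subunits overlapped between the groups. Among these 7 genes the difference between subunits and factors was thus one of size and not of a shared direction, because the factors moved to opposite sides. RIQ2 and PIFI came to attention through their difference, so the size says nothing about subunits and factors in general. Log2 changes below are ascorbate minus staurosporine on quantile-normalized intensity, which gives every array the same distribution, unless the deposited scale is named. The SE of a change comes from the limma fit without a block, which treats the 12 arrays as independent. If the arrays of a group amount to 3 samples, these SEs are likely too small. Over all 3438 features the median change was 0 by that normalization and 0.72 on the deposited scale. These medians include features listed at 0, whose changes rest on the value set for zeros. Over the 2540 features with no zero the medians were −0.06 and 0.49, so the deposited scale leans towards higher values with ascorbate.

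**Figure D1:**
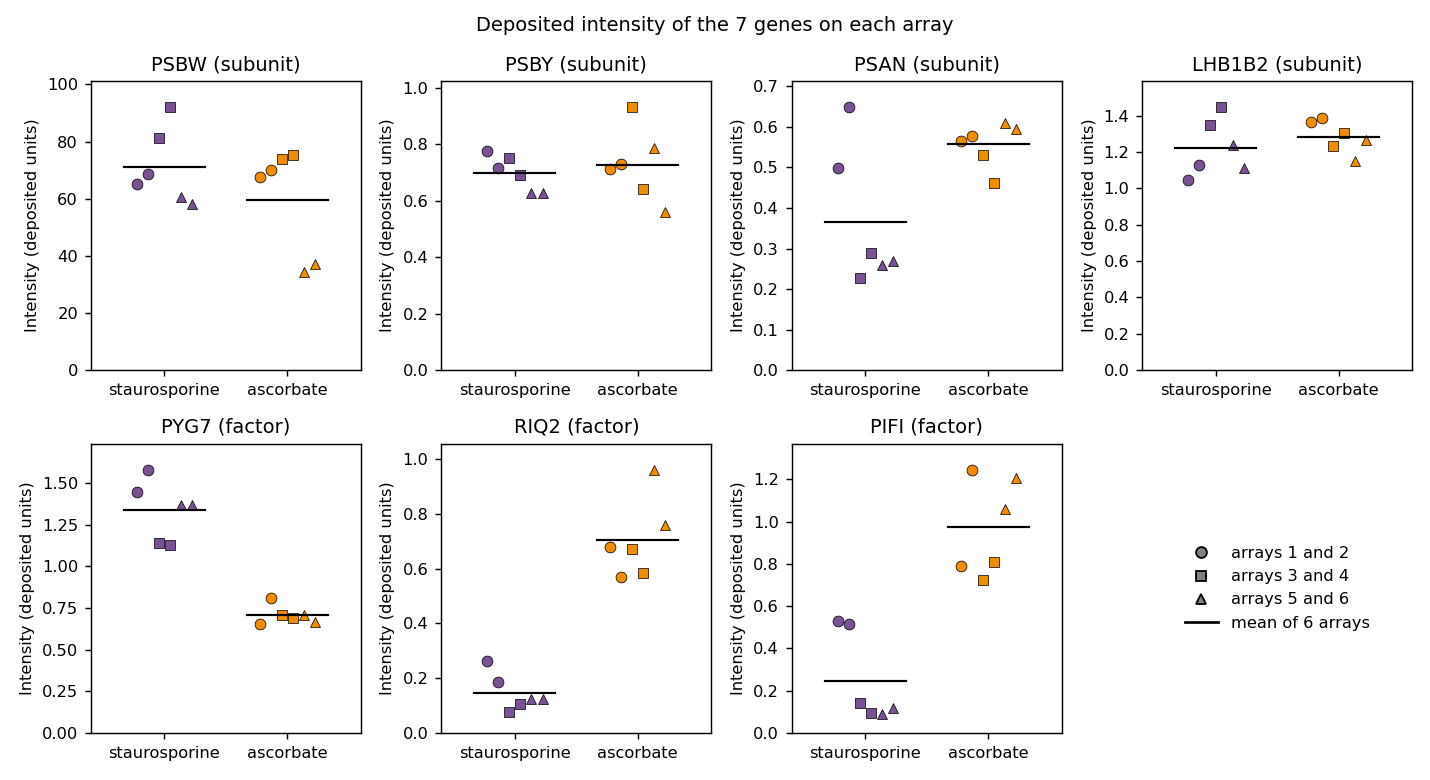
Deposited intensity (vertical axis, relative units, starting at 0) of the 7 genes on the 6 staurosporine and 6 ascorbate arrays, with 1 point per array, marker shapes for the array pairs and a line at the mean. PYG7, RIQ2 and PIFI separate the groups completely, at 1.13 or more against 0.811 or less for PYG7, whereas PSBW, PSBY, PSAN and LHB1B2 overlap.

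Among the factors, RIQ2 is a thylakoid protein that affects grana stacking and the organisation of light-harvesting complex II. Its deposited intensity was 0.0758 at the lowest, 0.124 at the median and 0.261 at the highest on the staurosporine arrays. On the ascorbate arrays the lowest, median and highest were 0.568, 0.675 and 0.960. Even the brightest staurosporine reading, on array 1, was below the dimmest ascorbate reading, on array 2. The means were 0.147 ± 0.0670 and 0.703 ± 0.144 (SD, n = 6 arrays), a ratio of 4.79. The log2 change of RIQ2 was 1.68 ± 0.17 (SE), with 1.53, 1.59 and 1.94 in the pairs of arrays 1 and 2, 3 and 4, and 5 and 6. On the deposited scale it was 2.35 ± 0.28 (SE). The probe moved from position 2088 to 2486 among the 3439 probes, counted from the brightest, to position 609 to 1326. A further probe listed for RIQ2 together with a second gene was left out.

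PIFI is a chloroplast protein linked to the NDH complex and is needed for the rise of chlorophyll fluorescence after illumination. It read 0.0875, 0.130 and 0.528 at the lowest, median and highest with staurosporine, and 0.723, 0.935 and 1.24 with ascorbate. The staurosporine arrays themselves fell into 2 sets, at 0.528 and 0.518 on arrays 1 and 2 and at 0.0875 to 0.142 on arrays 3 to 6. The means were 0.248 ± 0.214 and 0.973 ± 0.227 (SD, n = 6 arrays), and the SD of the staurosporine arrays was 86.5% of their mean. The log2 change was 1.79 ± 0.30 (SE), and it was 0.96, 1.66 and 2.74 in the 3 pairs in order. PIFI therefore kept its direction in each pair, but its size in arrays 5 and 6 was well above that in arrays 1 and 2. Leaving out arrays 1 and 2 of both groups gave 2.30.

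PYG7 is a tetratricopeptide repeat protein required for the assembly and stability of photosystem I, related to Ycf37 of cyanobacteria. It read 1.13, 1.37 and 1.58 at the lowest, median and highest with staurosporine and 0.656, 0.698 and 0.811 with ascorbate. No ascorbate array reached the dimmest staurosporine array, number 4. The means were 1.34 ± 0.176 and 0.706 ± 0.0557 (SD, n = 6 arrays), so that the mean was 1.89-fold lower with ascorbate. The log2 change of PYG7 was −1.16 ± 0.09 (SE), with −1.22, −0.96 and −1.30 in the pairs, and −0.91 ± 0.14 (SE) on the deposited scale. This is the opposite of the lean of the deposited scale: PYG7 was lower under all 6 array numbers while the median feature was higher. On the staurosporine arrays it held position 318 to 363 from the brightest, the narrowest span of the 6 genes dimmer than PSBW in that group, and on the ascorbate arrays position 827 to 1161.

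**Figure D2:**
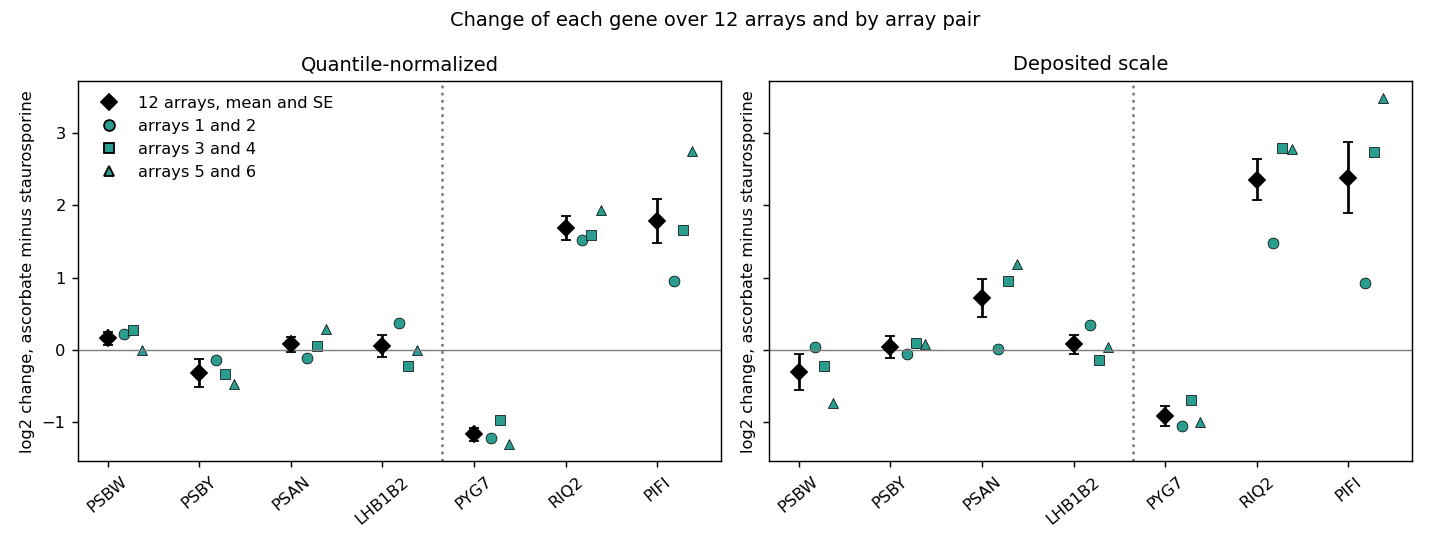
Log2 change of each gene (ascorbate minus staurosporine, vertical axis) on quantile-normalized values at the left and on the deposited scale at the right, as the 12-array mean with its SE (diamonds) and in each array pair (coloured markers). The SE treats the 12 arrays as independent. RIQ2 and PIFI lie above 0 and PYG7 below 0 in every pair on both scales, and the 12-array means of the 4 subunits lie closer to 0 than those of the 3 factors on both scales.

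PSBW is a small membrane-spanning subunit of photosystem II that helps hold the supercomplexes with the antenna together. It was among the 6 brightest of the 3439 probes on each array. Its intensity was 58.2, 66.9 and 92.0 at the lowest, median and highest with staurosporine and 34.3, 68.8 and 75.1 with ascorbate. Ascorbate arrays 5 and 6 read 34.3 and 37.2, while the other 4 ascorbate arrays read 67.5 to 75.1, inside the staurosporine range. These are the 2 arrays whose highest value was also low, as given above. The means of PSBW were 71.0 ± 13.1 and 59.7 ± 18.8 (SD, n = 6 arrays). Its change was 0.16 ± 0.09 (SE) after quantile normalization, −0.30 ± 0.25 (SE) on the deposited scale and −1.06 after median centring, so its direction depended on the scaling. At this brightness the normalized value holds only a position from 3 to 6 among the probes.

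PSBY is a small photosystem II subunit that lies near cytochrome b559. Its staurosporine arrays read 0.626, 0.705 and 0.778 at the lowest, median and highest, and its ascorbate arrays 0.559, 0.722 and 0.931. The groups overlapped, and both the lowest and the highest of the 12 readings were ascorbate arrays, numbers 6 and 3. The means were 0.699 ± 0.0627 and 0.727 ± 0.128 (SD, n = 6 arrays). The change was −0.31 ± 0.19 (SE) after quantile normalization, 0.04 ± 0.15 (SE) on the deposited scale and −0.72 after median centring, and under 3 of the 6 array numbers PSBY was brighter with ascorbate.

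PSAN is a lumenal subunit of photosystem I that takes part in its interaction with plastocyanin. It read 0.227, 0.280 and 0.648 at the lowest, median and highest with staurosporine and 0.462, 0.572 and 0.609 with ascorbate. The overlap came from staurosporine arrays 1 and 2, at 0.498 and 0.648, since arrays 3 to 6 read 0.227 to 0.290, below each ascorbate array. The same 2 arrays were the brightest staurosporine arrays for PIFI and RIQ2 and had the highest medians. The means of PSAN were 0.365 ± 0.169 and 0.557 ± 0.0533 (SD, n = 6 arrays). Its change was 0.72 ± 0.26 (SE) on the deposited scale but 0.08 ± 0.10 (SE) after quantile normalization and −0.05 after median centring. Divided by the median of its array, PSAN had group medians of 1.29 with staurosporine and 1.31 with ascorbate, and the groups overlapped. The higher deposited level was thus of the size of the shift in the array medians. PSBW, PSBY and LHB1B2 showed no such rise on the deposited scale, at −0.30, 0.04 and 0.08, and the cause was not tested.

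LHB1B2 encodes an LHCB1 protein, a chlorophyll a/b-binding protein of the main antenna of photosystem II. Its lowest, median and highest intensities were 1.04, 1.19 and 1.45 with staurosporine and 1.15, 1.29 and 1.39 with ascorbate. All 6 ascorbate readings lay inside the staurosporine range. The means were 1.22 ± 0.155 and 1.29 ± 0.0867 (SD, n = 6 arrays). The change was 0.06 ± 0.15 (SE) after quantile normalization, 0.08 ± 0.13 (SE) on the deposited scale and −0.68 after median centring, and in the pairs it was 0.38, −0.22 and 0.00 in order. LHCB1 genes are near-identical copies of each other, and whether the probe separates them is not given in the sources used here.

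**Figure D3:**
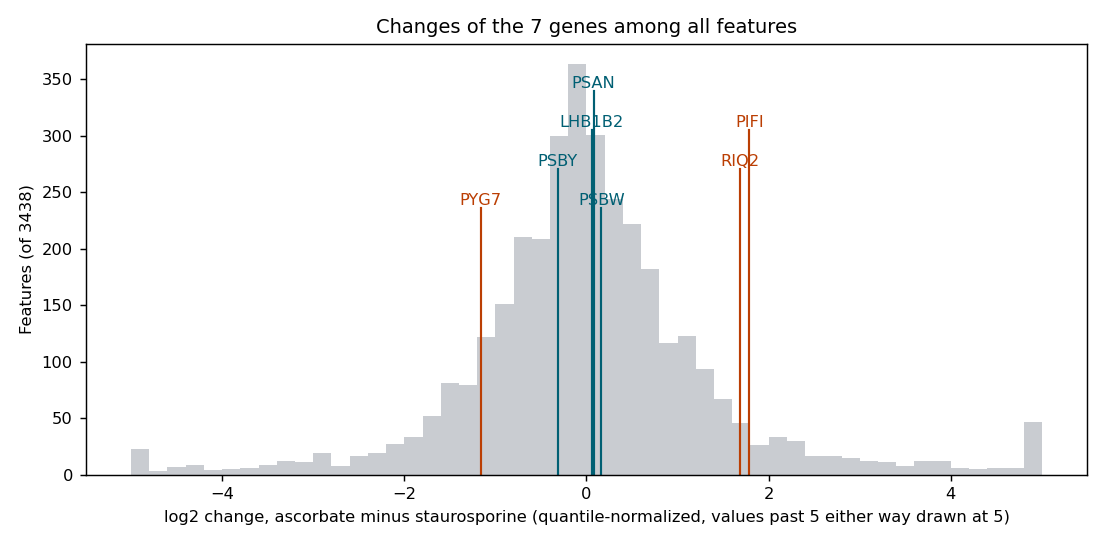
Histogram of the log2 change (ascorbate minus staurosporine, quantile-normalized, horizontal axis) over the 3438 features (vertical axis, number of features), with the 7 genes marked by vertical lines, subunits in blue and factors in orange. The subunits fall in the centre between −0.31 and 0.16, PYG7 lies on the lower side at −1.16, and RIQ2 and PIFI lie on the upper side at 1.68 and 1.79.

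Set beside all features, the 4 subunits had changes between −0.31 and 0.16 with a median of 0.07, and the 3 factors had changes of −1.16, 1.68 and 1.79 with a median of 1.68. The factor median was 1.62 above the subunit median. Since it is the RIQ2 value alone, it does not describe PYG7. PYG7 was above 12.9% of all features in its change, RIQ2 above 91.7% and PIFI above 92.3%, so all 3 had many features beyond them. With limma, 3 of the 7 genes (PYG7, RIQ2 and PIFI) were past an adjusted p of 0.05, beside 28.1% of all features. That rate was 14.0% for higher and 14.1% for lower, as 480 and 486 features, and on the deposited scale 1093 were higher and 208 lower. PSAN was also past it on the deposited scale, beside 37.8% of all features, those with zeros included. Over averages of consecutive arrays, with 3 values per group, 2 of the 7 (PYG7 and RIQ2) were past it, beside 1.54% of features. On the deposited scale the groups did not overlap for 2 genes with higher readings (RIQ2 and PIFI), beside 15.8% of the 2540 features with no zero, and for 1 with lower readings (PYG7), beside 5.47%. Because the genes were chosen with this comparison known, these counts describe them and nothing is read from the difference to the background.

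Ratios of 2 genes on the same array do not depend on a common scale factor, and only their shift between the groups is read here. The ratio of RIQ2 to PYG7 was 0.0666 to 0.181 with staurosporine and 0.700 to 1.36 with ascorbate. The groups stood far apart on this ratio, by 3.27 on the log2 scale. The ratio of PIFI to PYG7 behaved alike, at 0.0640 to 0.365 against 1.02 to 1.82. RIQ2 and PIFI were brighter and PYG7 dimmer on every ascorbate array, so both ratios to PYG7 had to separate the groups. They restate those readings and add no support to them. PIFI over RIQ2 was 0.707 to 2.76 with staurosporine and 1.08 to 2.19 with ascorbate, with overlapping groups and a mean log2 shift of 0.03. Against LHB1B2, PYG7 was 0.780 to 1.39 with staurosporine and 0.481 to 0.614 with ascorbate, again without overlap. The ranges of the 2 genes in each group fix this separation in advance too, so it adds no support. PSBY over LHB1B2 overlapped, at 0.479 to 0.745 and 0.441 to 0.754, with a mean log2 shift of −0.04. PSAN over LHB1B2 also overlapped, at 0.168 to 0.573 and 0.355 to 0.528, with a shift of 0.63. There the overlap came from staurosporine arrays 1 and 2 again, since arrays 3 to 6 were at 0.168 to 0.242. Divided by the array median, RIQ2, PIFI and PYG7 also kept the groups apart: RIQ2 was 0.437 to 0.667 against 1.32 to 1.97, PIFI 0.385 to 1.35 against 1.81 to 2.89, and PYG7 3.69 to 6.68 against 1.37 to 1.99. For PYG7 its own range and that of the array medians already fix this.

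**Figure D4:**
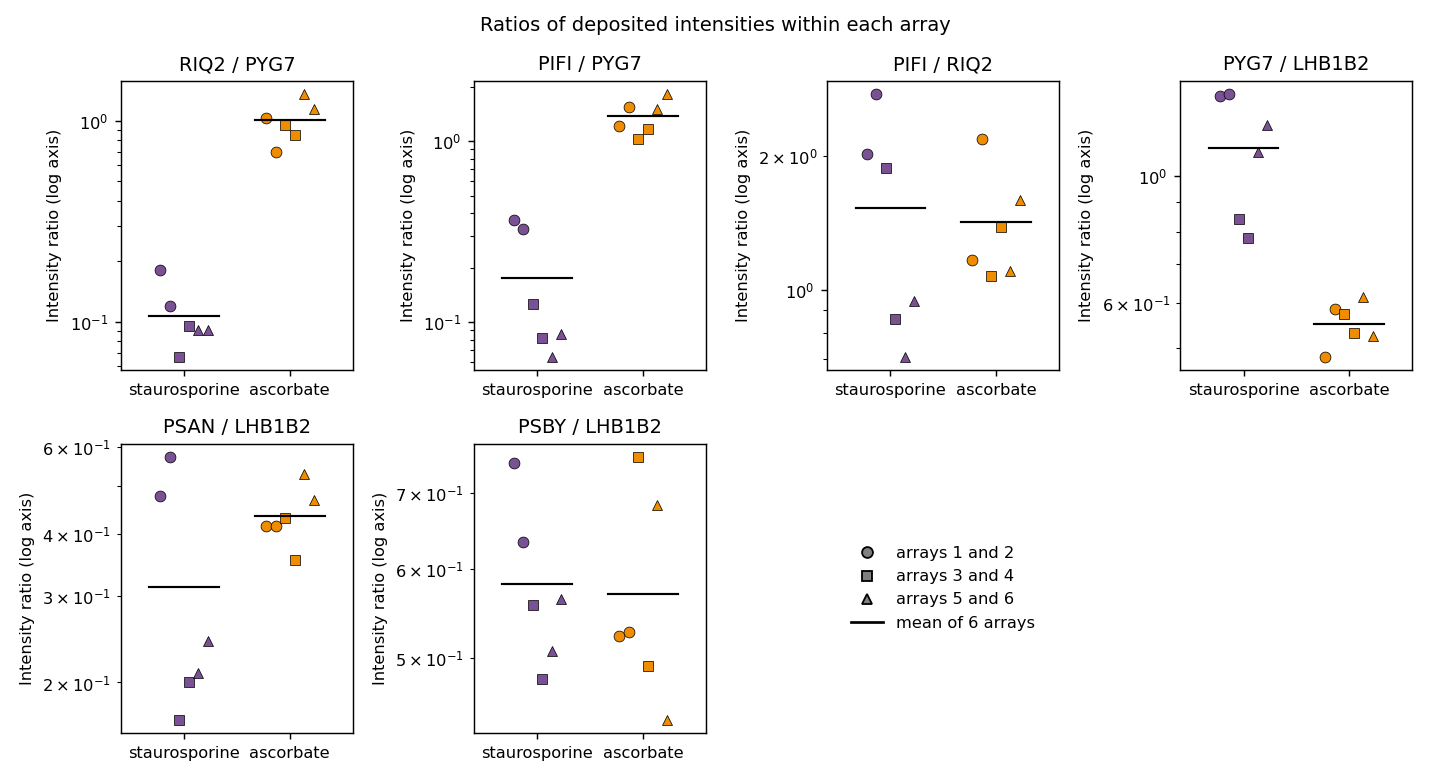
Ratios of deposited intensities of 2 genes on the same array (vertical log axes, no unit) in the staurosporine and ascorbate groups, with 1 point per array, marker shapes for the array pairs and a line at the mean. RIQ2 over PYG7 and PIFI over PYG7 separate the groups, which the readings of the single genes fix in advance. PYG7 over LHB1B2 separates them in the other direction, which the single readings fix as well. PIFI over RIQ2, PSAN over LHB1B2 and PSBY over LHB1B2 overlap.

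Movements within the groups were compared through the deviations of each gene from its group mean over the 12 arrays, on normalized log2 values. For RIQ2 and PIFI the correlation of these deviations was −0.22. It was −0.45 on the 6 staurosporine arrays and 0.05 on the 6 ascorbate arrays. For PYG7 and RIQ2 it was −0.34, as −0.86 and −0.27 in the 2 groups, and for PYG7 and PIFI 0.02, as 0.41 and −0.16. The highest value among the 21 pairs of the 7 genes was 0.74, between PSBW and PYG7, as 0.31 and 0.77. The values thus differed widely between the groups. Arrays share their scale and consecutive arrays resemble each other, so these values are descriptions. Among the 510 other single-gene loci with no zero, the deviations most like those of RIQ2 were at AT5G03370 (Pearson r = 0.82) and AT4G22190 (0.81), those most like PIFI at AT2G32040 and AT2G47830 (0.90 each), and those most like PYG7 at AT4G29890 and AT2G21960 (0.79 each), over 12 arrays. The nearest for the subunits were chr31 (AT1G05490, 0.95) and AT4G29890 (0.94) for PSBW, AT1G21350 (0.81) and AT4G32060 (0.80) for PSBY, AT1G50020 (0.88) and SWAP70 (AT2G30880, 0.82) for PSAN, and AT1G72890 (0.92) and AT5G49800 (0.91) for LHB1B2. The PSBW value rests on 4 positions only, as its normalized readings took few distinct values. For each gene these are the 2 highest of 510 correlations, so they are high by selection and say nothing of shared regulation. The median r over the 510 loci lay between −0.02 (RIQ2) and 0.08 (PYG7).

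Other genes of photosynthetic electron flow were taken from lists of symbols, and 9 had a single-gene probe. They comprised 4 genes of the NDH complex and cyclic electron flow and 5 assembly or thylakoid factors. No other photosystem or antenna subunit, electron carrier or ATP synthase subunit of the lists had one. Of the 9 genes, 0 passed in either direction with limma at an adjusted p of 0.05, beside the 28.1% of all features given above. At an unadjusted p of 0.05 it was also 0, where the share of all features is at least that 28.1%, since an adjusted p is never below the unadjusted one. Their changes had a median of 0.13, beside 0 over all features, and 5 of the 9 were positive. On the deposited scale the median was 1.55, beside 0.72 over all features. For the 4 genes with a zero on some array, the change rests on the value set for zeros. CRR41, NdhN and SPPA were among these and had negative changes after quantile normalization. On the deposited scale their changes were positive, at 3.13, 0.74 and 3.91. Of the 5 genes with no zero on any array, only PSB27 had a negative change after quantile normalization.

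CCB3, which takes part in attaching haem to cytochrome b6, read 0.0785 at the median and 0.231 at the highest with staurosporine, and 0.232 at the lowest and 0.269 at the median with ascorbate. The groups did not overlap, though by a margin far smaller than the spread within either group. The log2 change was 0.45 ± 0.26 (SE, limma adjusted p = 0.240). On the deposited scale its change was 1.55, with a limma adjusted p of 0.00991. LPA19, which takes part in processing the D1 protein of photosystem II, read 0.0336 to 0.277 and 0.220 to 0.376, with a change of 0.52 ± 0.26 (SE, limma adjusted p = 0.162). Its deposited-scale change was 1.66, with a limma adjusted p of 0.0239. After median centring the changes were 0.79 for CCB3 (limma adjusted p = 0.0287) and 0.90 for LPA19 (limma adjusted p = 0.0412), so both calls depended on the scaling. For both genes staurosporine arrays 1 and 2 were the brightest of their group, as for PSAN, PIFI and RIQ2.

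PSB27, a lumenal factor of photosystem II assembly and repair, overlapped at 0.734 to 1.90 and 0.599 to 1.61 (log2 change −0.31 ± 0.26 SE, limma adjusted p = 0.419). NdhS, the subunit through which the NDH complex binds ferredoxin, was the brightest of the 9 at 14.3 to 22.0 and 9.13 to 18.5. Like PSBW it was lowest on ascorbate arrays 5 and 6, and its change was 0.20 ± 0.12 (SE, limma adjusted p = 0.265) after normalization and −0.28 on the deposited scale. CRR21, a pentatricopeptide repeat protein that edits an NDH subunit transcript, read 0.305 to 0.527 and 0.401 to 0.878, and its pairs disagreed, at 0.85, 0.50 and −0.97. Its adjusted p was 0.793 in the limma fit and 0.0492 on the deposited scale. FZL, a dynamin-related protein of thylakoid organisation, was listed at 0 on 1 staurosporine array, reached 0.0799 on the others and read 0.0860 to 0.298 with ascorbate (limma adjusted p = 0.471). CRR41, NdhN and SPPA were listed at 0 on at least 9 of the 12 arrays and gave no level to compare.

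**Figure D5:**
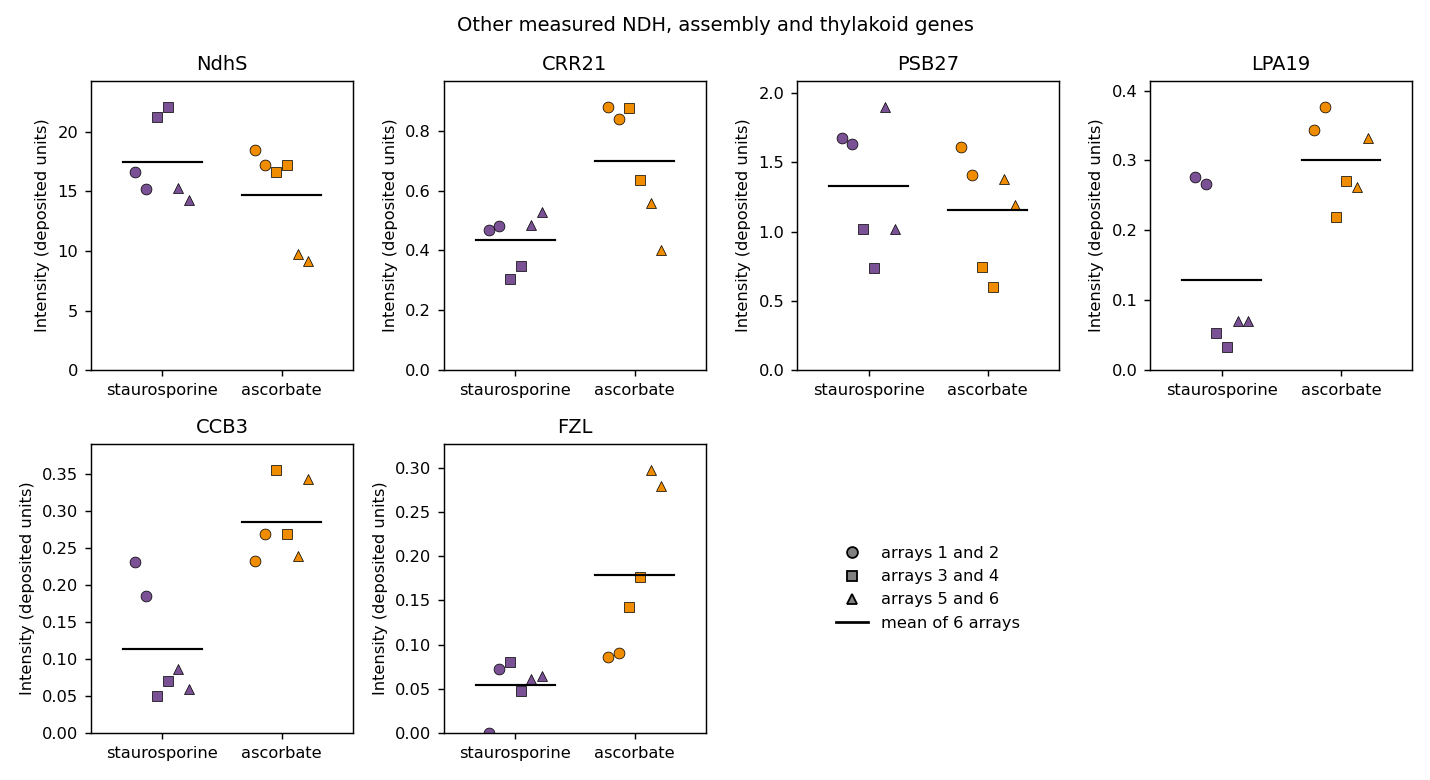
Deposited intensity (vertical axis, relative units, starting at 0) of 6 of the 9 other genes on the 6 staurosporine and 6 ascorbate arrays, with 1 point per array, marker shapes for the array pairs and a line at the mean. LPA19 and CCB3 are brightest on staurosporine arrays 1 and 2 within their group, and NdhS is dimmest on ascorbate arrays 5 and 6.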

How the data were processed

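Intensities were deposited by the authors on a linear scale from 0 to 100, and nothing in the labels or files names the scanner, the background correction, the normalization or the reference of the scale. A zero took the smallest positive value found on its array, log2 was taken, arrays were quantile-normalized, and probes of 1 locus were averaged, leaving 3438 features from 3439 probes. Of these probes, 692 had 1 gene, 870 several and 1877 none, and 690 of the 692 matched the TAIR10.1 gene table by Entrez number. Groups and array numbers came from the titles. The comparison used limma 3.58.1 under R 4.3.3 (lmFit, eBayes, 2-sided, Benjamini-Hochberg over all features), without a block. The fit was tested on simulated data in which all arrays were independent. That test therefore cannot tell how the fit behaves where consecutive arrays resemble each other, as they do here. The members, gene lists and tests were chosen with earlier results of these data known. Named genes were the 7 members, the list genes that passed and up to 4 per list that did not, by mean intensity, and the 2 loci nearest each member in its deviations from group means. SPPA fell outside this rule and was named after its values were seen.

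Deviations of same-numbered arrays of the 2 groups correlated across features at 0.106 to 0.347, each above 0.1, which met the rule for pairing, on the strength of the data, since no label says so. Of the 6 staurosporine arrays, number 5 correlated best with ascorbate array 6 and not 5. The printed changes and calls come from the fit without the block, and the block is an alternative. Consecutive arrays had Spearman correlations of 0.889 to 0.983 and an estimated correlation of 0.54 (duplicateCorrelation). No 2 arrays held identical values. The alternatives tried were no normalization, median centring or cyclic loess, adding a pseudocount of 0.0439, dropping the 25% dimmest features, blocking on array number, treating consecutive arrays as a random block or averaging them, a robust prior with an intensity trend, leaving out each array and, chosen after seeing the data, arrays 1 and 2 of both groups left out. No sequences or coordinates are printed, since no sequence table or genome build was used here. The number of arrays limits the precision.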

Additional observations from a re-analysis of the deposited data

Results flagged for a closer look

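Within groups of 6 arrays, 5 of the 32 groups looked at held a reading far from the rest, where chance alone marks about 1 group in 20. PYG7 on ascorbate array 2, at 0.811, lay above the next highest reading of 0.708, yet below each staurosporine reading. The other 4 were single readings above 0 in groups otherwise listed at 0, which stand apart whatever their size, so the count of 5 says nothing about chance: CRR41 on staurosporine array 6 (0.00235) and ascorbate array 6 (0.0154), NdhN on ascorbate array 6 (0.00204) and SPPA on staurosporine array 4 (0.00205).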

How the results depend on the processing

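The changes of PYG7, RIQ2 and PIFI kept their sign under each alternative, at −1.68 to −0.91, 1.46 to 2.35 and 1.58 to 2.38. Dropping dim features, blocking, averaging consecutive arrays and the robust prior leave a change as it is, so they could not turn a sign. For genes whose groups did not overlap, leaving out arrays could hardly do so. The subunits' signs did not hold. PSBW turned to −0.30 on the deposited scale and −1.06 after median centring, PSBY to 0.043 on the deposited scale (−0.72 after median centring), and PSAN to −0.046 after median centring. LHB1B2 turned to −0.68 after median centring and −0.11 without arrays 1 and 2 of both groups, and spanned −0.030 to 0.14 when single arrays were left out, being below 0 without staurosporine array 1 or 2. The subunit median was −0.70 after median centring, the factor median 2.35 on the deposited scale, and their difference 2.29 on both of these scales. Median centring shifts all genes of an array alike, so this match is fixed by arithmetic. Counts of higher and lower features were 1093 and 208 on the deposited scale, 515 and 755 after median centring, 296 and 262 with consecutive arrays as a random block, and 31 and 22 over pair averages. With the array number as a block they were 432 and 417, and this block changed no call of the genes named. Of the 9 other photosynthesis genes, 3 were called higher on the deposited scale (CRR21, LPA19, CCB3), beside 37.8% of all features in either direction. After median centring 2 were called higher (LPA19, CCB3) and 1 lower (PSB27), beside 36.9%. With single arrays left out, 0 to 1 were called higher (CCB3 without ascorbate array 5, beside 24.3%). Changes of the features listed at 0 rest on the floor set for zeros, and dim readings limit CRR41, NdhN and SPPA. The changes of these genes were negative after quantile normalization and positive on the deposited scale. The cause of these differences was not tested.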
